A study of Homo sapiens and Mus musculus with 10 samples.

Results

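Gene sets of opposite kind were compared between mouse embryonic stem cells (mESC) and 4 human cell lines, both defined by open promoters. Of 15136 autosomal protein-coding genes whose symbols match between mouse and human when case is ignored, 497 (3.28%) had a promoter peak in both mESC libraries and in no human library, and are called the mESC-only set. The opposite pattern, a promoter peak in all 8 human libraries and in neither mESC library, was found for 162 genes (1.07%), called the human-only set. All 10 libraries were open at 9752 genes (64.4%), and none was at 685. Open means that at least 1 deposited peak touched a window reaching 1 kb to each side of an annotated start site of the gene. The rule used these same peaks, so the sizes and peak values of the sets describe them and were not tested.

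Chromatin accessibility was measured by bulk ATAC-seq, in which the transposase Tn5 cuts open chromatin and the cut fragments are sequenced. The human lines were GM12878 (B-lymphoblastoid), HEK293T (embryonic kidney cells carrying the SV40 large T antigen), HFF1 (foreskin fibroblasts) and K562 (erythroleukaemia), with no treatment named. The mouse line was grown without feeder cells in a medium with leukemia inhibitory factor and the N-2 and B-27 supplements. Each line had 2 replicates and is 1 line of its kind, and nothing in the labels says that replicates came from separate cultures, so a p-value measures only the spread between these libraries. A symbol match is not proof of orthology, and only 1 of 504 human ZNF symbols found a match. Species, cell type, annotation and peak list length all separate mESC from the human libraries and cannot be told apart here.

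Promoters of vertebrates fall broadly into CpG-rich ones, which keep many CG dinucleotides and are often open in most cell types, and CpG-poor ones, which tend to be open in particular tissues. Pluripotent cells keep a network of transcription factors active, among them Oct4 (encoded by Pou5f1), Nanog, Esrrb and Klf proteins, and are known for low DNA methylation when kept in a naive state. Many germline genes are silenced by promoter methylation in somatic cells, and an E-box with the letters CACGTG is a known binding site at a group of meiotic genes. Interferon-stimulated genes carry the interferon-stimulated response element (ISRE), bound by STAT and IRF factors.

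The sequences below are shown for promoters on which the results turn, with the letters that matter in capitals. Brdt, a bromodomain protein of the testis, and Slc25a31, a testis-type ADP/ATP carrier, were in the mESC-only set, and the E-box CACGTG (capitals, the same on both strands) stands upstream of both the mouse and the human gene. Each sequence runs 5′ to 3′ on the gene's strand and covers up to 250 bases that end just before the representative start site (the start of the MANE Select or best-ranked APPRIS transcript), and is cut shorter where an annotated exon lies further upstream. The positions are chr5:107330909-107331158 and chr3:40708605-40708854 in GRCm38, and chr1:91949151-91949342 and chr4:127730150-127730399 in GRCh38, all on the plus strand.
Brdt: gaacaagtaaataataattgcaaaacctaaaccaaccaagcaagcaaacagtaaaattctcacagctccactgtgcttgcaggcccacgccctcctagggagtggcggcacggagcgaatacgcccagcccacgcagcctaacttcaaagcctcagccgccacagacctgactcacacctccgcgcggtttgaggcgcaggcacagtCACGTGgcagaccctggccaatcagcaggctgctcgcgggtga
BRDT: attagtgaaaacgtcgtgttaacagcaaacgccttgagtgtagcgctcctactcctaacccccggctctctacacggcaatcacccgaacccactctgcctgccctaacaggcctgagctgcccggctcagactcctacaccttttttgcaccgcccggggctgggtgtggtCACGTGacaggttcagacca
Slc25a31: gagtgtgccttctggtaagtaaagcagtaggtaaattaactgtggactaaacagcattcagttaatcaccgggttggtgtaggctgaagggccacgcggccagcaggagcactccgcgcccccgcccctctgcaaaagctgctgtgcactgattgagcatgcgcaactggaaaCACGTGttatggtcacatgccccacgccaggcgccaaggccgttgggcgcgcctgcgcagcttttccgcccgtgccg
SLC25A31: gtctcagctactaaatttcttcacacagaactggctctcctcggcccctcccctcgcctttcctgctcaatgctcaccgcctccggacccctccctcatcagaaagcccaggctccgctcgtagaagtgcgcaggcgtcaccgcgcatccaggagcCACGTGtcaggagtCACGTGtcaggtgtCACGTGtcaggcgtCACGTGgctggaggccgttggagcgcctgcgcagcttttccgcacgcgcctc

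Ifit3 and Isg15, both induced by interferon, were in the human-only set. The capitals mark matches to the ISRE core, searched on both strands as GAAA, any 2 bases, then GAAA, and overlapping matches run together. The mouse positions (GRCm38) are chr19:34583281-34583530 on the plus strand and chr4:156200819-156201068 on the minus strand. The human positions (GRCh38) are chr10:89327747-89327940 and chr1:1013247-1013496, both on the plus strand. The ISRE letters are present in the mouse promoters too, where no peak was listed.
Ifit3: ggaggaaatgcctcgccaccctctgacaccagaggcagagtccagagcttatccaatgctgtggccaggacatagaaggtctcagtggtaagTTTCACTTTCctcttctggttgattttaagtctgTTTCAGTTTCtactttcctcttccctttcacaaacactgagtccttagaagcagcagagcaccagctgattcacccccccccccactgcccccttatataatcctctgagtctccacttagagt
IFIT3: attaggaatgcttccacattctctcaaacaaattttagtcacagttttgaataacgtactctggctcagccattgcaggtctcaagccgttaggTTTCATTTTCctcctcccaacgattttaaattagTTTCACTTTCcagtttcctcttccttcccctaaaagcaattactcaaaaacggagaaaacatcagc
Isg15: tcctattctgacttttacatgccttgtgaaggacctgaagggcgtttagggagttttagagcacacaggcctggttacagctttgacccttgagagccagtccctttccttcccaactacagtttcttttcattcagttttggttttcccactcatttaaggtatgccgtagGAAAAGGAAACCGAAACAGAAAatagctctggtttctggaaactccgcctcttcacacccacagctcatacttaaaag
ISG15: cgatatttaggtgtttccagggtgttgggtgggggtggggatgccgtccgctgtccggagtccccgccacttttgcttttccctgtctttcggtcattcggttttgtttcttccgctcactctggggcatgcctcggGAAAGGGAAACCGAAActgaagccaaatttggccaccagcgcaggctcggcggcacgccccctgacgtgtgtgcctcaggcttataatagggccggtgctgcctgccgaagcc

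The mESC peak lists were the longest, with 135662 and 139362 autosomal peaks against 50183 to 124544 in the human libraries, and read depth is not given in the lists. They reached 89.0% and 89.1% of the matched genes. The human libraries reached 84.9% and 84.3% in HFF1, 79.7% and 79.8% in GM12878, 78.6% and 77.6% in K562, and 76.7% and 76.3% in HEK293T. Between mESC and each single human line, more genes were open in mESC alone than in the human line alone: 1722 against 480 for GM12878, 1855 against 241 for HEK293T, 1026 against 467 for HFF1 and 1862 against 385 for K562. A gene with no listed peak was below the threshold of its list, not shown to be closed.

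**Figure D1:**
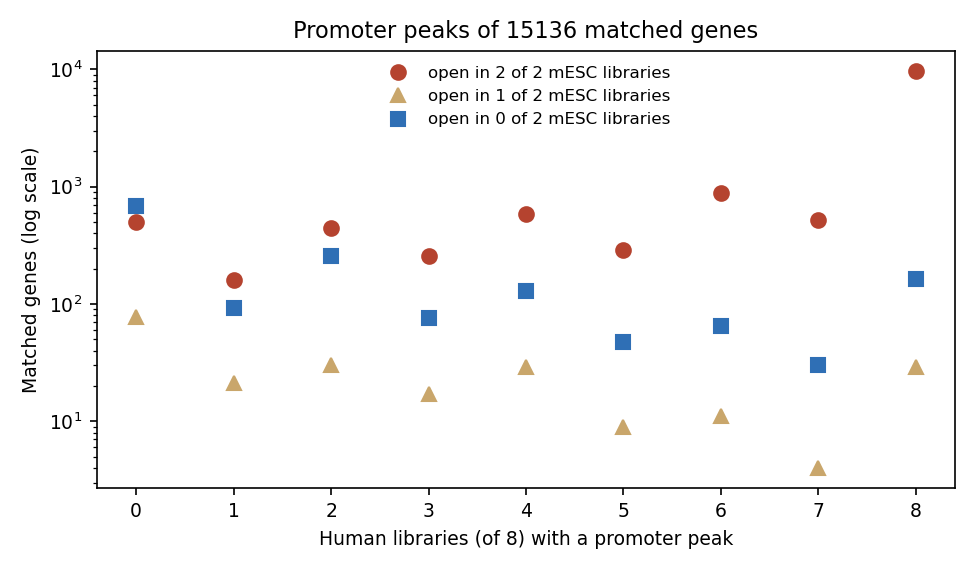
Matched genes (log axis) by the number of human libraries with a promoter peak (horizontal axis), split by the number of mESC libraries with one. The mESC-only set is the red point at 0 human libraries (497 genes), the human-only set is the blue square at 8 (162 genes), and the highest point is the 9752 genes open in all 10.

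The 4 human lines differed in how much of the mESC repertoire they shared. Of the 13369 genes open in both mESC libraries, 91.4% and 91.0% were open in the HFF1 replicates, 85.7% and 85.9% in GM12878, 85.1% and 84.1% in K562, and 84.4% and 84.0% in HEK293T. HFF1 stood highest, GM12878 lay above the remaining lines, and the K562 and HEK293T replicates overlapped. Line accounted for a share of 0.9886 of the variance among the 8 libraries (eta squared, exact permutation test over all ways of pairing the libraries, one-sided, p = 0.019, smallest possible 0.00952). The mESC libraries alone chose these 13369 genes. The lines also differ in list length, from 50183 peaks in a HEK293T library to 124544 in an HFF1 library, and their order depended on it. With the 50000 strongest peaks of each library, HEK293T shared the most (mean 89.1%) and GM12878 the least (82.9%), with HFF1 at 86.2%. Without both HEK293T libraries the exact permutation p was 0.0667.

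The mESC label was checked against 4 markers. Zfp42 (Rex1), a zinc finger gene expressed in naive pluripotent cells, had folds of 10.3 and 9.41 in the mESC replicates and no human promoter peak. A fold here is the deposited enrichment of the peak over its local background. Pou5f1 (folds of 3.78 and 3.52) was open in mESC and also in both HFF1 libraries (6.96 and 6.53). Nanog (4.84 and 4.53) was also open in HFF1 replicate 1 (5.83). Esrrb (5.73 and 5.80) was open in both HEK293T libraries (9.41 and 11.6), GM12878 replicate 2 (3.55) and HFF1 replicate 1 (3.74). All 4 markers were thus open in both mESC libraries, but 1 of 4 was in the mESC-only set. At the representative start site alone, or with the 50000 strongest peaks, Pou5f1 and Nanog joined it. Zfp42 left it with a 2 kb window, and also where no human peak was allowed within 5 kb. Of 10 markers listed for each human line, both libraries of the line were open at 10 in GM12878, 10 in HFF1, 9 in K562 (not KLF1) and 8 in HEK293T (not SOX11 or OSR1), and many of these were open in other lines too. The mESC libraries were both open at 10 of the K562 and 10 of the HEK293T markers, and at 7 each of the GM12878 and HFF1 markers. Single libraries were open at 76.3% to 89.1% of all matched genes, so these counts alone identify no line.

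Pluripotency factors and germline genes made up a larger share of the mESC-only set than of the matched genes. All 38 matched genes of the pluripotency list were open in both mESC libraries. So were 13369 of all 15136 matched genes, and every matched gene of the AP-1, cell cycle and NADH dehydrogenase lists. Of the 38, 9 (23.7%) were in the mESC-only set against 3.28% of all matched genes, 10 were open in all 8 human libraries, and 19 in some. The 9 were Zfp42, Klf17, Prdm14, Dppa3, Fgf4, Gdf3, L1td1, Dnmt3l and Tdgf1. Klf4, Klf5, Klf2, Lin28b, Dnmt3b and Tet2 belonged to those open in every library. Near the edge, Nr5a2 and Otx2 were each kept out by 1 HFF1 peak, of fold 3.84 and 4.58 (chosen after their values were seen). None of the 38 was in the human-only set.

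The 9 pluripotency members ranged widely in peak strength. Dnmt3l, the cofactor of the de novo DNA methyltransferases, had the strongest peak (12.5 and 11.6). Fgf4, a growth factor gene under Oct4 and Sox2, followed (11.1 and 9.85). Klf17 differed most between replicates (11.3 and 7.52). L1td1, an RNA-binding protein, had 6.60 and 8.12. The secreted factor Gdf3 had 5.57 and 5.30, and Prdm14, a repressor of DNA methylation genes, 4.86 and 4.66. The lowest were Tdgf1, a Nodal coreceptor (4.51 and 3.92), and Dppa3, also called Stella (4.65 and 3.61). Only Dnmt3l, Fgf4 and Zfp42 were above the median of 8.81 in both replicates, the median over all genes open in mESC of the lower replicate.

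Of the 70 matched germline genes, 16 (22.9%) were in the mESC-only set against 3.28% of all matched genes, 21 were open in all 10 libraries, and none was in the human-only set. A human peak lay within 5 kb of a start site in 12 of the 16, Brdt, Dazl, Tex12 and Sycp3 among them, and without these 4 of 70 (5.71%) remained, against 1.18% of all matched genes. Both mESC libraries were open at 65 of the 70, against 13369 of all 15136 matched genes. The 16 covered several steps of germ cell development. Brdt had the strongest peak of all 497 members (17 and 17.7). Dazl, an RNA-binding regulator of germ cells, had 12.7 and 10.9, and its nearest human peak lay 1.26 kb from a start site. The synaptonemal complex genes were Tex12 (10.5 and 9.59), Syce1 (9.04 and 10.6) and Sycp3 (7.92 and 7.46). Terb1, which attaches meiotic telomeres to the nuclear envelope, had 8.58 and 8.75.

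Genes of the piRNA pathway, which silences transposons in germ cells, formed the next group. Tdrd12 had 11.4 and 10.4, Tdrd9 had 9.90 and 10.4, and Tdrd1 had 4.84 and 4.88. Piwil1 (3.2 and 3.74) and Fkbp6 (4.70 and 3.67) were weakest. The others were Slc25a31 (8.85 and 8.02), the dipeptidase gene Dpep3 (8.40 and 7.25), Dnd1 (6.22 and 6.58), Tex101 (6.14 and 6.5) and Nobox, an oocyte transcription factor (5.71 and 5.87). In most of these genes the replicates lay closer to each other than to the strongest or weakest member. Outside the list, Prm1 and Prm2, the sperm protamines, shared folds of 15.9 and 16.9. No peak lay at the representative start site of Prm2 or of Tdrd9.

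**Figure D2:**
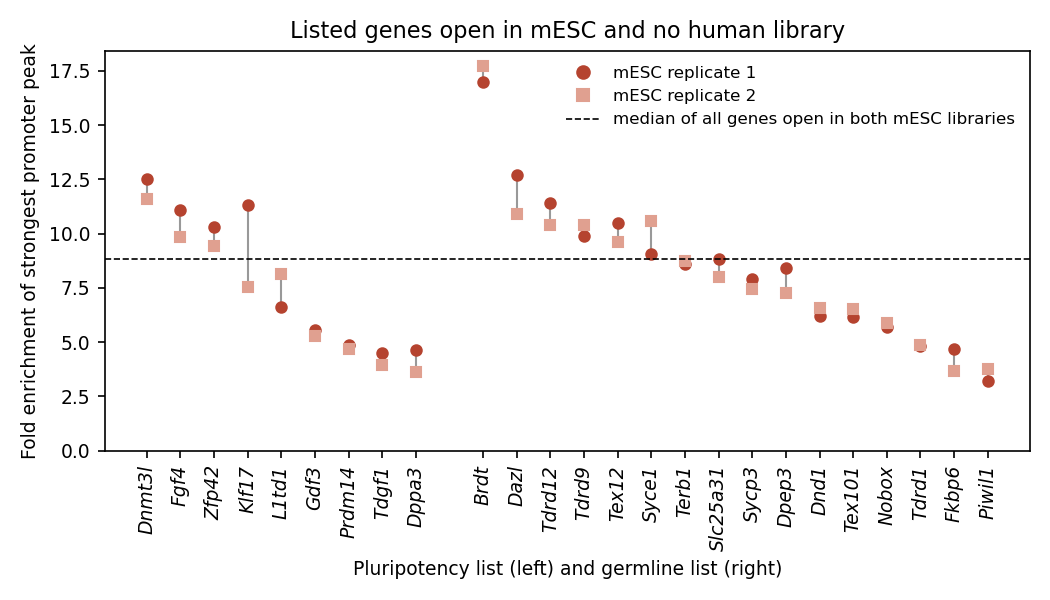
Fold enrichment of the strongest promoter peak in mESC replicates 1 (circles) and 2 (squares) for the members of the pluripotency list (left) and germline list (right) in the mESC-only set, 1 gene per column. The dashed line is the median of 8.81 over all genes open in both mESC libraries. Brdt stands highest, and 3 of the 9 pluripotency genes lie above the line in both replicates.

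The E-box shown above was found in 8 of the 16 germline members (50.0%) in the mouse promoter and in 8 of 16 in the human promoter, within 250 bases before and 50 after the representative start site. It was in 22.2% of the other 54 germline genes in either genome, and in 8.95% of all mouse and 9.29% of all human promoters of matched genes. In the whole mESC-only set it was no more frequent than elsewhere, at 7.24% in mouse and 7.04% in human. Brdt, Slc25a31, Tdrd1 and Tex12 held it upstream in both genomes, and human SLC25A31 holds it 4 times in the sequence above. These are counts of letters, with no measure of binding.

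Smaller groups in the mESC-only set came from the other lists, each of 1 to 3 genes, beside 3.28% of all matched genes. Of 28 imprinted genes, 3 (10.7%) were members: Peg3 (3.96 and 4.07), Dlk1 (5.89 and 5.34) and Nnat (4.49 and 4.71), all expressed from the paternal allele. Of 39 HOX genes, 3 (7.69%) were: Hoxb1 (6.07 and 5.70), Hoxc12 (3.2 and 2.86) and Hoxd12 (3.38 and 3.59). Sox1, a neural factor (5.38 and 4.84), and Gcm1, a placental factor (4.66 and 5.13), were the 2 of 32 early lineage regulators (6.25%). Apobec1, a cytidine deaminase (7.83 and 6.90), joined Dnmt3l from the list of 16 genes related to DNA methylation (12.5%). Rpl10l, a testis-expressed copy of a ribosomal protein gene (9.70 and 8.98), was the only 1 of 79 ribosomal genes (1.27%).

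Klf1, the erythroid master regulator, had mESC folds of 9.99 and 9.10 and no peak in any human library, the erythroleukaemia line K562 included. A human peak lay 1.24 kb from its start site, and Klf1 left the set with a 500 bp or a 2 kb window. It also left when the peak summit had to lie in the window, so not both mESC libraries had a summit there. The lists of NF-kappaB, AP-1, cell cycle, NADH dehydrogenase, fibroblast and kidney genes held no member of either set. They have 40, 27, 28, 34, 10 and 10 matched genes. With 3.28% and 1.07% of all matched genes in the sets, lists this small can easily hold none.

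**Figure D3:**
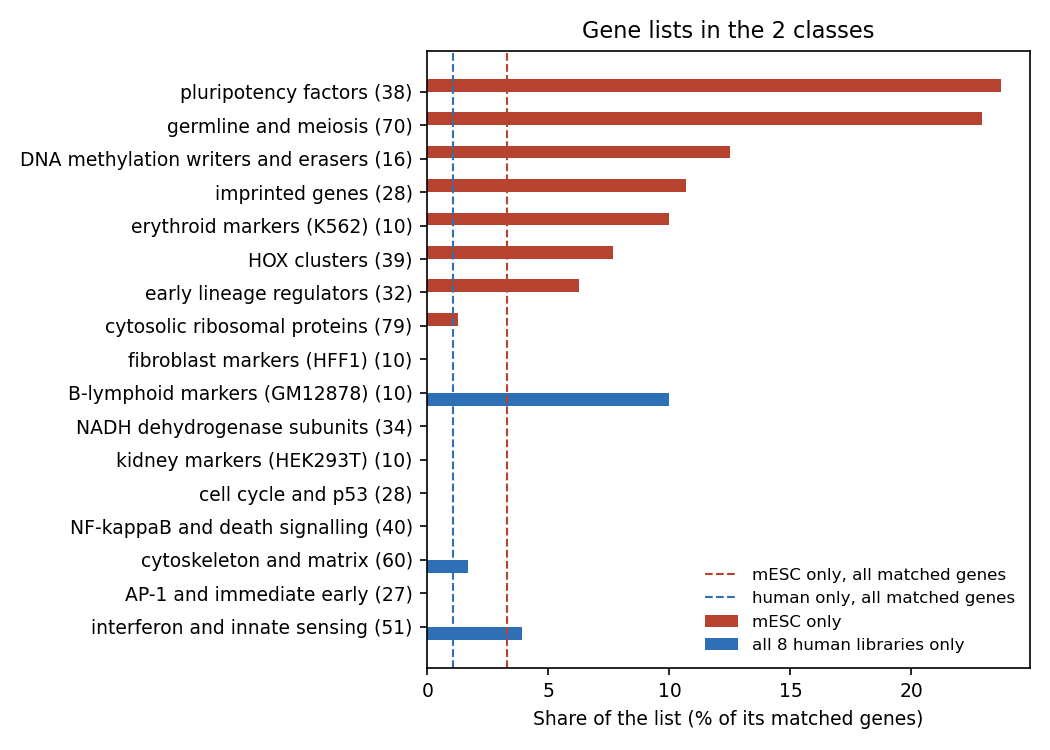
Share of each gene list (number of matched genes in brackets) in the mESC-only set (red bars) and the human-only set (blue bars), in percent of the list. Dashed lines mark the shares of all matched genes, 3.28% and 1.07%. Pluripotency (23.7%) and germline (22.9%) genes stand furthest to the right.

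The 12 members with the strongest peaks were Brdt, Smn1, Slc6a19, Prm1, Prm2, Lexm, Smim17, Npy4r, Cntfr, Ccdc73, Adgrb1 and Ptpn20, with a lower replicate of 13.2 to 17. They include the intestinal amino acid transporter Slc6a19 (16.8 and 16.0), whose peak was away from the representative start site, and Cntfr, the ciliary neurotrophic factor receptor (14.1 and 14.2). Just inside the threshold were Evx2, Rab25, Pla2g10, Fgf17 and Sdr9c7, at 2.51 to 2.78. Just outside were Clec4g (17.5 and 16.2), Slc18a1, Lrit2, Rnf17 and Tspear, each with 1 human peak, of fold 4.03 to 5.55.

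Some strong members had human promoters whose sequence recurs in the human genome. A promoter was called repeated where at least 80% of its 31-base words, sampled every 20 bases over 1 kb on either side of the representative start, occurred more than once. Of 67 matched genes with a repeated human promoter, 27 (40.3%) were in the mESC-only set, against 3.12% of the other 15069. No human peak at all was listed for 42 of the 67 (62.7%), against 8.08% of the others. SMN1 (97.0% of words), which lies in a segmental duplication with SMN2, had mESC folds of 16.4 and 16.6. NPY4R (98.0%), PTPN20 (91.9%) and PLA2G10 (100%) were others, and NCF1, GTF2H2, EIF3C, BOLA2, CBS and DDT were among the 27. How reads with several matches were handled is not given in the sources used here, so the human state of these promoters is uncertain. Without repeated promoters in either genome, 470 members remained.

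Some multigene families were counted after the values were seen. Of 47 matched clustered protocadherins, which encode neuronal cell-surface identity proteins, 15 (31.9%) were in the mESC-only set against 3.28% of all matched genes, 39 were open in both mESC libraries and 2 in all 10. Among 45 keratins 9 (20.0%) were members, among 17 connexins 4 (Gja4, Gja5, Gjb5 and Gjb6), and among 41 Fox genes 5 (Foxd4, Foxh1, Foxi1, Foxi2 and Foxn4). Solute carriers (20 of 332, 6.02%) and the cilia genes named Tekt or Cfap (1 of 34, 2.94%) were nearer the share of all matched genes. The human-only set held 1 connexin (5.88%), 7 solute carriers (2.11%) and 1 cilia gene (2.94%), against 1.07% of all matched genes. It held no protocadherin, keratin or Fox gene, but at 1.07% families of 47, 45 and 41 genes are too small for this absence to be read. Paralogs of these families resemble each other, and read placement among them is uncertain.

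Peaks of the mESC-only set were weaker, narrower and further from a start site than those of genes open everywhere. In mESC replicates 1 and 2, the median fold was 6.66 and 6.57, against 9.82 and 9.71 for the genes open in all 10 libraries. The median width was 542 and 545 bp against 909 and 897 bp. The median distance from summit to nearest start site was 180 and 162 bp against 64 and 65 bp. The 16 germline members lay nearer, at 51 and 66 bp. Among CpG-poor promoters (those not CpG-rich as defined below), the set was compared with genes open in both mESC libraries and a human one. The fold was then 6.66 and 6.58 against 8.66 and 8.51. The width was 499 and 501 bp against 678 and 677 bp, and the distance 184 and 165 bp against 90 and 88 bp. In 408 of 497 members (82.1%) both mESC libraries had a peak at the representative start, against 94.7% of all genes open in mESC. A human peak lay within 5 kb of a start site in 319 members (64.2%), against 54.9% of the genes open in no library.

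Fewer promoters of both sets were CpG-rich at the representative start site than over all matched genes. A promoter was called CpG-rich where the 1 kb around the representative start had an observed/expected CpG of at least 0.6 and a GC content of at least 50%. In the mESC-only set 20.1% of promoters were CpG-rich in mouse and 31.4% in human, against 58.3% and 71.3% of all matched genes and 76.2% and 88.5% of those open in all 10 libraries. In the human-only set 2.47% were CpG-rich in mouse and 17.9% in human. Of the 8419 genes CpG-rich in both genomes, 1.01% were in the mESC-only and 0.0356% in the human-only set. Of the 3943 rich in neither, 8.27% and 3.35% were. CpG-poor promoters of both genomes were open in both mESC libraries in 57.8% of cases and in all 8 human libraries in 24.3%. Which set held more CpG-rich human promoters depended on the start site and list length. At the start site of highest observed/expected CpG the human shares were 53.7% in the human-only and 33.0% in the mESC-only set, against 76.1% of all matched genes. With both sets redefined by peaks at the representative start they were 73.4% and 31.8%, so that the human-only set was then at the level of all matched genes. With the 50000 strongest peaks of each library the human-only set held 334 genes, of which 117 were the same, and its shares were the higher ones in mouse (29.3% against 25.4%) and human (49.1% against 40.3%). With thresholds of 0.75 and 55% the shares in the mESC-only set were 9.05% and 18.3%, against 33.7% and 47.6% of all matched genes.

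**Figure D4:**
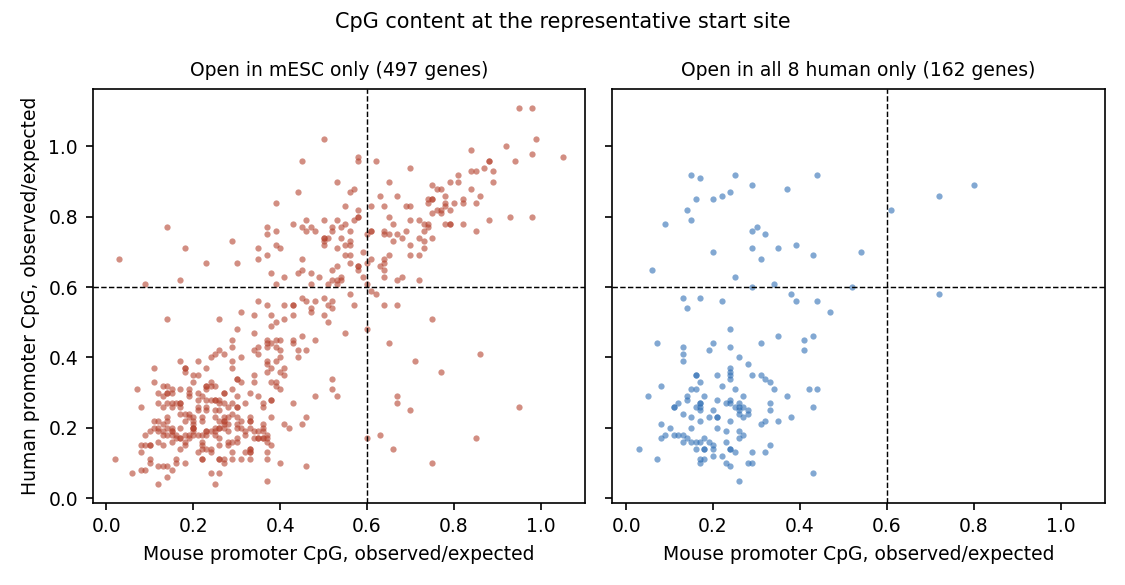
Observed/expected CpG of the mouse (horizontal axis) and human (vertical axis) promoter for each gene of the mESC-only set (left, 497 genes) and human-only set (right, 162 genes), with dashed lines at 0.6. In the left panel most points lie along the diagonal and most are below 0.6 on both axes, while in the right panel few points pass 0.6 in mouse.

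Of the 12 promoter words searched on both strands, 7 were less frequent in both sets than over all matched genes in both genomes: SP/KLF (GGGCGGG), ETS (CCGGAAG), NRF1 (GCGC, any base, TGCGC), E2F (GCGGGAA), CRE (TGACGTCA), YY1 (AAGATGGCG) and the E-box. The SP/KLF word was in 22.5% of mouse promoters of the mESC-only set and 8.64% of those of the human-only set, against 41.9% of all matched genes. In human promoters the shares were 29.2%, 22.2% and 52.2%. The ETS word was in 5.43%, 1.23% and 13.4% of mouse promoters in the same order. All words were searched around the representative start site only. In the human-only set 60 of 162 genes (37.0%) had a human peak there in all 8 libraries, and 61 had none there in any. In the mESC-only set 408 of 497 (82.1%) had an mESC peak there in both libraries. The human shares of the human-only set thus describe representative promoters, which often were not where the listed peak lay.

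Within CpG classes some of the gaps in word shares were smaller and others were not. In mouse, the SP/KLF word was in 50.0% of the CpG-rich promoters of the mESC-only set against 56.4% of all CpG-rich ones, and in 15.6% against 21.7% of the CpG-poor ones. The ETS word was in 4.79% of CpG-poor mouse promoters of the mESC-only set against 5.78%, but in 8 of 100 CpG-rich ones (8.0%) against 18.9%. Among CpG-rich human promoters it was in 7 of 29 of the human-only set (24.1%), above the 18.1% of all matched genes. The AP-1 word (TGANTCA) was more frequent in both sets, at 7.04% and 11.1% in mouse against 5.64%, and 6.44% and 8.64% in human against 4.94%. In CpG-poor human promoters its shares were 8.80% and 10.5% against 10.2%. CCAAT was in 37.4% and 38.3% of mouse promoters against 36.7%.

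Many peaks of the human-only set lay at start sites other than the representative one. Its genes had a median of 5.5 human and 2 mouse start sites, against 6 and 4 over all matched genes. A peak lay at the representative human start in all 8 libraries in 60 of 162 genes (37.0%), against 90.7% of all genes open in all 8, and 61 genes had none there in any library. The human windows of 65 genes (40.1%) overlapped those of another protein-coding gene, against 24.8% of all matched genes. In mouse the windows of 9 (5.56%) did, against 18.3% of all matched genes. A neighbour with a matched symbol was found for 57 of the 65, and in all 57 a neighbour was open in both mESC libraries. Most genes are: 13369 of all 15136 matched genes were open in both mESC libraries. So were 9752 of the 9943 genes open in all 8 human libraries.

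Several of the strongest members are of this kind. SCN11A, a sodium channel of sensory neurons, shares a window with WDR48, and its folds ran from 12.8 to 15.6 over the 8 libraries. ZAR1L stands beside BRCA2 (10.8 to 13.8), CPS1, the first enzyme of the urea cycle, beside LANCL1 (13.4 to 17.6), and IL5RA, the interleukin 5 receptor, beside TRNT1 (12.3 to 18.2). GLIPR1L2 (with CAPS2), AKAP3 (NDUFA9), TIGD4 (ARFIP1), XKR9 (LACTB2) and PRH1 (SMIM10L1 and TAS2R14) also shared windows, with lowest folds of 10.7 to 14.7. CYP2E1, an ethanol-oxidising enzyme of the liver, had the highest folds (15.2 to 21.5) and shared no window, but its peak was at the representative start only in HFF1 replicate 1. DNAH5 (11.5 to 18.2) had no peak at the representative start in any library.

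ACTA2 shows the difference between any start site and the representative one. ACTA2, the smooth muscle actin of contractile fibroblasts, had folds of 11.6 and 10.9 in HFF1 and 6.24 to 8.27 in the other lines. A peak at its representative start was present only in the 2 HFF1 libraries, and its windows overlap those of FAS.

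Peaks of the human-only set also lay further from a start site than those of genes open everywhere, at a median of 149 to 202 bp over the 8 libraries against 62 to 67 bp. They were narrower, at 346 to 651 bp against 553 to 900 bp. Among CpG-poor promoters the widths were 322 to 601 bp, against 428 to 698 bp for genes open in all 8 human and at least 1 mESC library. The distances there were 202 to 281 bp against 74 to 85 bp. All open CpG-poor promoters together had widths of 359 to 528 bp, narrower than those of the set in every line but HEK293T. An mESC peak lay within 5 kb of a mouse start site in 114 members (70.4%), against 44.4% of the genes open in no library.

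Ifit3 and Isg15 were the 2 members among 51 interferon and innate sensing genes (3.92%, against 1.07% of all matched genes), and both had the peak at the representative start in all 8 libraries. IFIT3, an interferon-induced antiviral protein, had folds of 8.39 and 8.65 in GM12878, 8.95 and 9.38 in HEK293T, 8.50 and 8.72 in HFF1, and 7.78 and 8.22 in K562, a narrow range. The nearest mESC peak to the mouse gene was 32.4 kb away. ISG15, a ubiquitin-like modifier, was higher in HFF1 (13.1 and 12) and K562 (10.4 and 9.75) than in GM12878 (8.91 and 9.02) and HEK293T (7.04 and 6.64). The nearest mESC peak was 2.00 kb from a start of Isg15, which left the set with a 2 kb window. Of the 51 genes, 47 were open in both mESC libraries and 34 in all 10. Over the 15136 matched genes, 13369 were open in both mESC libraries and 9752 in all 10. The ISRE core was searched around the representative start site only. It was in 5.56% of the promoters of the human-only set in either genome, against 3.05% of all mouse and 2.89% of all human promoters. In CpG-poor human promoters it was in 4.51% of the set against 5.04% of all matched genes, and in CpG-poor mouse promoters in 5.70% against 3.96%.

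The human-only set moved with the choice of start site. At the representative start alone it held 233 genes, of which 60 were the same. The other 173 had an mESC peak at another mouse start site. In these 233 genes 73.4% of promoters were CpG-rich in human and 2.15% in mouse, and 167 (71.7%) were CpG-rich in human only. Of these 167, 126 had a CpG-rich start site elsewhere in the mouse gene and 144 an mESC peak at another start. The remaining 23 had no mESC peak at any start site and no CpG-rich mouse start site.

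With every start site considered, 84 of the 162 members (51.9%) were CpG-rich at some human start and at no mouse start, against 13.8% of all matched genes. Of these 84, 50 (59.5%) shared a human window with another gene, against 15 of the other members (19.2%). In the mESC-only set the reverse pattern, CpG-rich at some mouse start and at no human start, was found in 32 members (6.44%), against 2.30% of all matched genes.

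The letters of CTCF, the factor that bounds chromatin loops, stood at many summits of the human-only set. The word searched on both strands, within 50 bases on either side of the summit of the strongest promoter peak, was CCA, any 2 bases, AG, any 2 bases, then GGC. It was present in 11.7% to 14.2% of the 162 genes over the 8 libraries, against 3.04% to 3.82% of the 9781 genes open in all 8 human and at least 1 mESC library. Among CpG-poor promoters the shares were 14.3% to 17.3% and 5.63% to 6.78%. In the mESC-only set the word was at 5.23% and 5.43% of summits, against 3.09% and 3.02% of the other genes open in both mESC libraries, and at 5.79% and 6.05% against 5.21% and 5.06% among CpG-poor promoters. The word was searched after the sets had been seen.

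**Figure D5:**
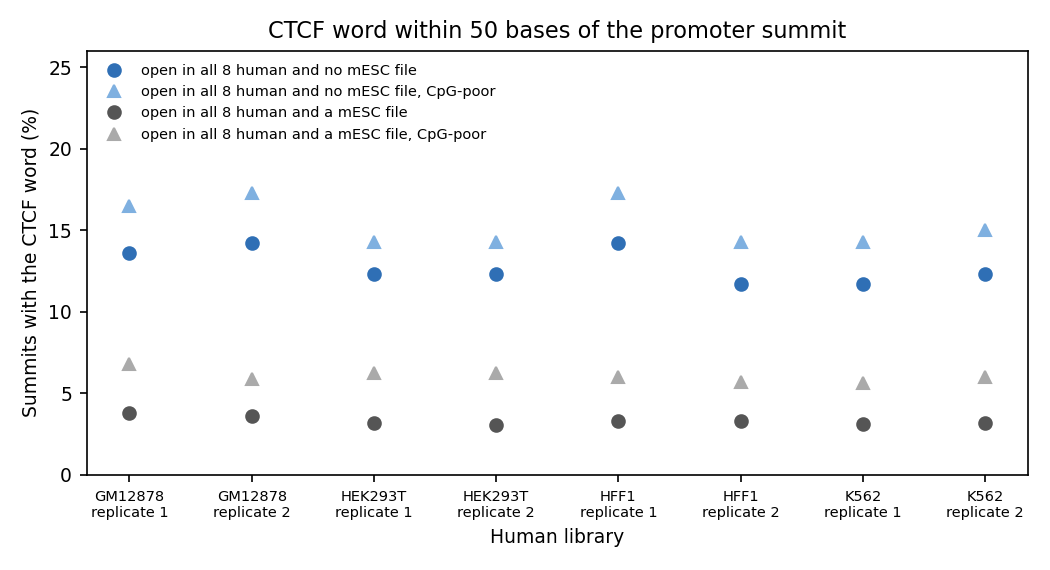
Percent of genes with the CTCF word within 50 bases of the summit of the strongest promoter peak, by human library. Blue points are the human-only set, grey points the genes also open in mESC, and triangles the CpG-poor promoters of each. In every library the blue circles (11.7% to 14.2%) lie above the grey circles (3.04% to 3.82%).

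In 10 genes of the human-only set the word was at the summit in all 8 human libraries: ABCC12, ARHGAP40, ERMN, GAL3ST3, GPR142, GPR17, LCP2, SCN2B, SLC14A2 and TTR. The mouse windows of 3 of the 10 held the word anywhere, against 31.5% of all matched mouse genes. The sequences of 3 are given to show the word at the summit of GM12878 replicate 1, with 50 bases on either side, on the plus strand of GRCh38, in capitals. LCP2, an adaptor of T cell receptor signalling, is shown at chr5:170268005-170268105, ARHGAP40 at chr20:38646279-38646379 and GPR142 at chr17:74368369-74368469. The LCP2, ARHGAP40 and GPR142 summits lie 728, 734 and 913 bp from the nearest start site. Their peaks have folds of 15.5, 11 and 7.74 in that library.
LCP2: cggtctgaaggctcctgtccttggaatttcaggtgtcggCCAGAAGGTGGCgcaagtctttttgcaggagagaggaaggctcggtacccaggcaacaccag
ARHGAP40: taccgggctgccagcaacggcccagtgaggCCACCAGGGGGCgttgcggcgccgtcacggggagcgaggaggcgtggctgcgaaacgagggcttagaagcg
GPR142: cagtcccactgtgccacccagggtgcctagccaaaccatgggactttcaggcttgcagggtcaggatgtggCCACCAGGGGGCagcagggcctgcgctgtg

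Mean numbers of peaks further out differed less between the sets. From 1 to 50 kb from the start sites, the mESC-only set had 1.07 and 1.08 times as many mESC peaks as the average matched gene, and 0.872 to 1.03 times as many human peaks. The human-only set had 1.07 to 1.18 times as many human peaks and 0.965 and 0.957 times as many mESC peaks. Genes with no human peak in this range were more frequent in the mESC-only set than over all matched genes in 3 lines. In replicate 1 the shares were 12.5% against 5.21% in GM12878, 11.9% against 4.64% in HFF1 and 12.7% against 8.47% in K562. In HEK293T they were 16.9% and 14.7% against 14.8% and 14.9%. Genes open in no library had fewer peaks on both sides, at 0.694 and 0.704 times the mESC average and 0.744 to 0.802 times the human.

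At the lower edge of the human-only set were Slc6a12, Col6a1, Tppp2, Depp1 and Prrt2, with a lowest fold of 3.02 to 3.45. COL6A1, a collagen of the fibroblast matrix, had folds of 3.72 and 3.34 in GM12878, 7.95 and 8.07 in HEK293T, 5.63 and 5.84 in HFF1 and 5.50 and 5.21 in K562, so it was not highest in fibroblasts. Just outside were Slc27a5, Podnl1, Tmprss7, Pmfbp1 and Tmem72, each with a peak in mESC replicate 2, of fold 3.02 to 5.44, and none in replicate 1.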

How the data were processed

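Peak lists of 10 bulk ATAC-seq libraries (5 lines, 2 replicates each) were used. The submitters' processing notes name cutadapt 3.2, Bowtie2 2.4.2, Picard, MACS2 2.2.7.1 and the builds hg38 and mm10, with no settings. The authors deposited for each peak a fold ratio over local background, −log10 p and q values, and a score. The score was not used. Peaks were called per library, and the lowest −log10 q was 2.00 to 2.05 in each.

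Promoters came from GENCODE 44 (human) and M21 (mouse), 22 and 19 autosomes. A further 24 shared symbols that occur more than once were left out. The representative start was that of the MANE or principal transcript. Sequences were read from GRCh38 and GRCm38 with pysam 0.24.0. Tests used numpy 2.4.6. On simulated lists of the 15136 genes, 200 of 200 simulated members of each set were recovered. The simulated peaks were placed inside promoter windows, and the members were drawn from genes without shared windows. Full recovery was thus fixed in advance, and it checks the computation, not the real sets. Named genes were the 4 markers, listed members, the 12 strongest and 5 weakest of each set and 5 just outside. Some named members are not reported here. Members, lists and rules were chosen with earlier results of these data known, and 17 lists and 12 promoter words were searched. Families, repeated words, summit words and shared-window neighbours were examined after the values were seen. Alternatives were other windows, start sites, thresholds, list lengths and left-out libraries. No samples were dropped. With 1 mouse and 4 human lines, an exact permutation of lines cannot go below p = 0.2, so the sets were not tested.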

Additional observations from a re-analysis of the deposited data

How the results depend on the processing

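The mESC-only count lay between 400 and 643 under the other windows, start sites, thresholds and list lengths, and between 502 and 539 with 1 library left out. The human-only count was 162 to 182 with 1 library left out, 334 with the 50000 strongest peaks and 95 without genes whose windows are shared. With no peak of the other species within 5 kb, chosen after seeing the data, the counts were 178 and 48. At the representative start 408 of 629 and 60 of 233 genes were shared with the sets described. Of 73 named members, 15 stayed in their set in every setting with all libraries.

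CpG-rich shares with 1 library left out were 18.6% to 21.1% (mouse) and 29.0% to 32.2% (human) in the mESC-only set and 2.31% to 3.85% and 16.8% to 19.8% in the human-only set. With thresholds of 0.75 and 55% they were 9.05%, 18.3%, 0.617% and 9.88% in that order. With the 50000 strongest peaks they were 25.4%, 40.3%, 29.3% and 49.1%. In mouse, the mESC-only share was 25.6% at the start of highest CpG, 24.2% with a 500 bp window, 16.5% with a 2 kb window and 25.1% at the representative start. In human, the human-only share was 53.7% at the start of highest CpG and 73.4% at the representative start. A −log10 q of at least 10 gave 27.5% and 40.3% in the mESC-only set and 6.16% and 25.3% in the human-only set. Without both HEK293T libraries the mESC-only shares were 24% and 35.8%. The human-only share in mouse was 4.38% with a 500 bp window, 4.21% without genes whose windows are shared, 6.63% when the summit had to lie in the window, 0.629% without repeated promoters and 6.25% with no mESC peak within 5 kb, where the mESC-only share in human was 36.5%. The cause of these shifts was not tested.

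The p for the difference between human lines was 0.00952 to 0.0476 with 1 library left out and 0.0667 without both HEK293T libraries, the smallest that 3 lines allow (exact permutation test). With a replicate block, which pairs only libraries numbered 1 with libraries numbered 2, it was 0.0417, the smallest possible. The numbers are not stated to mark a shared batch. Of 38 pluripotency and 70 germline genes, 6 and 4 were in the mESC-only set with no human peak within 5 kb, against 1.18% of all matched genes.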
